A study of Mus musculus with 16 samples.

Results

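Solute carriers are membrane proteins that move sugars, amino acids, ions, metals, vitamins, nucleosides, hormones and drugs across cell membranes, by facilitated diffusion, by exchange or by coupling to an ion gradient. Members were taken from a count table by name and by level. A gene was included when its GENCODE vM21 symbol was Slc followed by a number, a letter and a number, or began with Slco, when it had at least 10 counts in each of 16 libraries, and when it did not start within the window around Apoe on chromosome 7 (GRCm38, 14696109 to 24696109). Of 376 genes with such a symbol, 195 met the rule, out of 39057 identifiers in the table. The minimum was a rule on level, so the levels of the carriers are given as a description. The rule set no condition on the genotype difference, but a minimum in every library also left out 6 genes that fell short in 1 genotype only.

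The RNA came from primary cortical brain endothelial cells of APOE3 and APOE4 targeted replacement mice, in which a human APOE isoform replaces the mouse gene and is driven by the mouse promoter, so both groups lack the unmodified mouse gene by design. Each genotype had 8 cultures from 8 animals, 4 males and 4 females, aged 21 to 28 days. Each culture came from the cortex of 1 animal, was exposed to 8 µg/ml puromycin to enrich endothelial cells, was grown to confluence and received no other treatment. Poly(A) RNA was sequenced as paired 50-nt reads, and libraries held 12717847 to 18624417 counts. Levels are given as CPM, counts scaled to the same total in every library, with TMM-scaled library sizes. Differences are log2 fold changes of APOE4 against APOE3 with their standard error (SE) from edgeR's quasi-likelihood test. Adjusted p-values are Benjamini-Hochberg values over all 12481 genes tested, with a threshold of 0.05.

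In the brain, capillary endothelial cells are sealed by tight junctions, so polar nutrients enter and waste leaves mostly through carriers in the luminal and abluminal membranes. GLUT1, encoded by Slc2a1, carries glucose, the complex of Slc7a5 and Slc3a2 carries large neutral amino acids, MCT1 (Slc16a1) carries lactate and ketone bodies, and organic anion carriers of the Slco and Slc22 families carry thyroid hormone, steroid conjugates and drugs. Other solute carriers sit in mitochondria, the Golgi apparatus or lysosomes and serve functions shared by most cells.

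The labelled cell type was checked against marker genes. All 20 brain endothelial markers were tested. Pecam1 averaged 3624 CPM in APOE3 and 3646 CPM in APOE4 cultures, and Cldn5 averaged 1342 and 1279 CPM. Summed endothelial markers ran from 18229.7 to 19518 CPM in APOE3 and from 17876 to 19410.2 CPM in APOE4 cultures. Emcn was higher (0.14) and Egfl7 lower (-0.16) on the log2 scale with APOE4. The median of the list was -0.06, with 17 of 20 below 0. Pericyte and smooth muscle markers summed to 189 to 356 CPM in APOE3 and 223 to 340.0 CPM in APOE4 cultures, with 7 of 12 tested, 0 called and Higd1b at or under 3 counts in every library. Their median log2 fold change was 0.19, with 6 of the 7 tested above 0. Of 10 fibroblast markers, 5 were tested, Fbln1 was higher with APOE4 (log2 fold change 0.90) and Lum and Dpt were at or under 3 counts. The summed fibroblast markers were 25.5 to 76.6 CPM and 28.2 to 108 CPM, and the median log2 fold change was 0.33, with 4 of the 5 tested above 0. Markers of astrocytes (4 of 8 tested, 36.8 to 47.4 and 38.0 to 47.2 CPM), microglia and macrophages (2 of 8, 8.05 to 10.5 and 7.05 to 10.4 CPM), neurons (2 of 8, 8.91 to 12.8 and 10.8 to 15.6 CPM) and oligodendrocytes (2 of 8, 24.5 to 32.2 and 31.6 to 38.0 CPM) were low. Aqp4, Slc1a2, Cx3cr1, P2ry12, Snap25, Gad2, Mog, Mag, Olig1, Olig2 and Sox10 were at or under 3 counts in every library. Every other gene of these lists exceeded 3 counts in at least 1 library. Among markers of choroid plexus epithelium, 3 of 8 were tested, their sum was 108 to 128 and 112 to 163 CPM, and Folr1 and Kcne2 were at or under 3 counts. Cnp, an oligodendrocyte marker, and Clic6, a choroid plexus marker, were higher with APOE4 (0.23 each), and nothing else in those 5 lists passed the test. The part that other cell types play in the carrier results was not tested, and in bulk RNA fewer cells of a type and less RNA per cell cannot be told apart. Human APOE was counted in every culture, at 15504 to 22318 reads with APOE3 and 7672 to 14722 reads with APOE4.

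The carriers together took a median of 1.31% of all counts in APOE3 (1.28% to 1.41%) and 1.25% in APOE4 cultures (1.20% to 1.31%). Levels were compared between genes only as CPM per kilobase of merged exon length. On that scale Slc2a1 stood first, at 398 ± 22.4 CPM per kb (SD, n = 16), ranging from 356 to 446. Slc7a5 followed at 196 ± 52.0 CPM per kb (131 to 322), then its partner Slc3a2 at 116 ± 17.6 CPM per kb (87.4 to 147).

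Slco2b1, an organic anion carrier, averaged 102 ± 15.2 CPM per kb, and Slc50a1, the mammalian member of the SWEET sugar carriers, averaged 68.4 ± 5.66 CPM per kb. The culture range of Slc2a1 did not overlap that of Slc7a5, while from the second place to the fourteenth the ranges of neighbours in the order overlapped. The median carrier was at 5.47 CPM per kb and the lowest at 0.131 CPM per kb. Of the leading 10, Slc2a1, Slc7a5, Slc3a2, Slco2b1 and Slco1a4 belong to a list of 22 carriers known at the blood-brain barrier, and others in the leading 10, such as the adenine nucleotide carriers Slc25a4 and Slc25a5 and the zinc importer Slc39a1, are widely expressed.

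**Figure D1:**
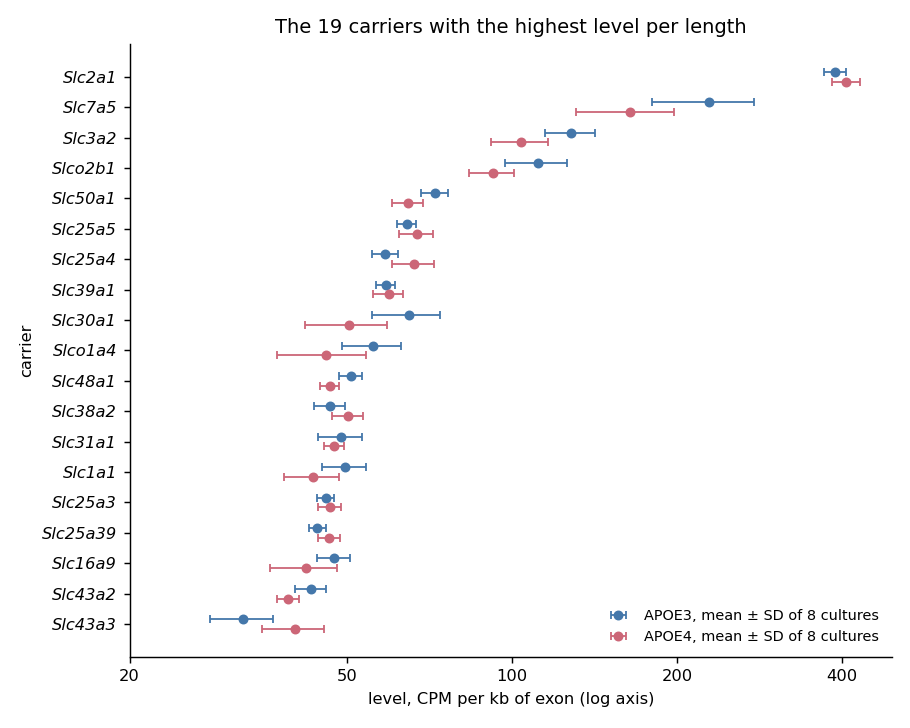
Level per length (CPM per kb of exon, log axis) of the 19 carriers with the highest mean, with the mean and SD of 8 cultures for APOE3 (blue) and APOE4 (red). Slc2a1 lies near 398 CPM per kb in both genotypes, and the APOE4 means of Slc7a5, Slc3a2, Slco2b1 and Slc30a1 lie to the left of their APOE3 means.

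All 195 carriers were tested. With APOE4, 28 differed from APOE3, 7 higher and 21 lower. Over all genes tested 12.8% were called, 6.71% higher and 6.09% lower. The share of carriers called (14.4%) was thus near the background. By direction, 3.59% of carriers were higher and 10.8% were lower. The median log2 fold change of the carriers was -0.01, beside 0.00 over all genes tested, and 103 of 195 carriers lay below 0. The sizes of the called differences ran from 0.13 to 0.64 on the log2 scale with a median of 0.28, and 1 carrier, Slc7a8, exceeded 0.5. The cultures of the genotypes overlapped for every carrier. A lack of overlap was rare over all genes tested too (0.625%), so this does not set the carriers apart.

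The counts depended on single cultures. Without APOE4 culture 41 the test called 4 higher and 9 lower, without APOE3 culture 30 it called 3 and 10, without APOE3 culture 33 it called 6 and 11, without APOE3 culture 26 it called 5 and 12, and without APOE4 culture 35 it called 5 and 13. Of the 28 carriers, 11 were called in each of the 16 fits that left out 1 culture.

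**Figure D2:**
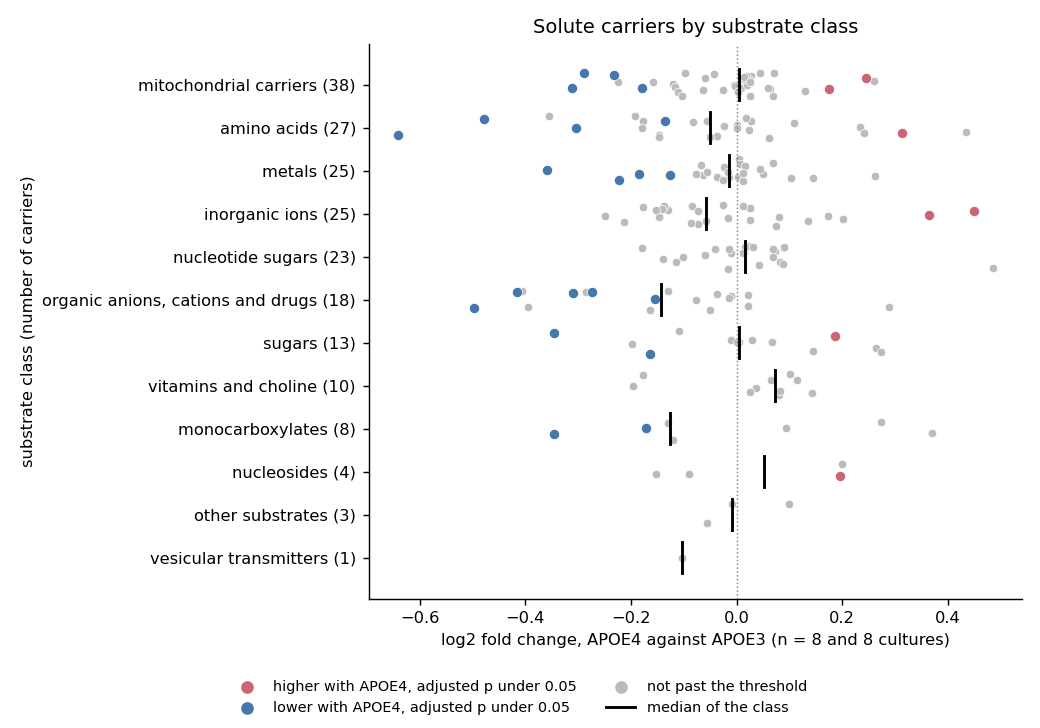
Log2 fold change of each of the 195 carriers (1 point each, APOE4 against APOE3, 8 cultures per genotype), arranged by substrate class with the number of carriers in brackets. Red and blue points passed an adjusted p of 0.05, grey points did not, and black bars are class medians. Blue points lie in the amino acid, metal, organic anion, monocarboxylate, sugar and mitochondrial classes.

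Grouped by substrate, carriers of organic anions, cations and drugs had 5 lower and 0 higher of 18 (median log2 fold change -0.14). Families classed with the amino acid carriers had 4 lower and 1 higher of 27 (median -0.05), the higher one being Slc43a3, which is described as a carrier of purine nucleobases rather than amino acids, and carriers of metals had 4 lower and 0 higher of 25 (median -0.01). Monocarboxylate carriers had 2 lower of 8 (median -0.13). Mitochondrial carriers had 4 lower and 2 higher of 38 (median 0.00), sugar carriers 2 lower and 1 higher of 13 (median 0.00), inorganic ion carriers 0 lower and 2 higher of 25 (median -0.06) and nucleoside carriers 1 higher of 4 (median 0.05). None of 23 nucleotide sugar carriers, 10 carriers of vitamins and choline, 3 carriers of other substrates or the 1 vesicular transmitter carrier passed edgeR's test. Across those 4 classes 7 carriers had an unadjusted p under 0.05, and over all carriers 60 did, beside 29.0% of all genes tested. The class counts are descriptions, and no test of a class was made.

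All 22 barrier carriers were expressed above the minimum. With APOE4, 8 were lower, 1 was higher and 13 did not pass the test. The shares were 36.4% lower and 4.55% higher, beside 6.09% and 6.71% of all genes tested. This list was drawn up with earlier results of these data known. Its median log2 fold change was -0.15, and -0.04 when the mean level of cell cycle genes in each culture was a further term. The following paragraphs describe them with the other carriers of the same substrates.

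Among amino acid carriers, both chains of the large neutral amino acid carrier were lower. Slc7a5 encodes the transporting light chain LAT1 (chr8:121881150-121907694, GRCm38, minus strand). It measured 639, 800.5 and 1195 CPM (lowest, median and highest) in APOE3 cultures and 486, 584 and 860.3 CPM in APOE4 cultures. Of the APOE4 cultures, 7 of 8 were below the APOE3 median and 5 were below every APOE3 culture, while culture 43 stood above that median. The log2 fold change was -0.48 ± 0.12 (SE, edgeR's quasi-likelihood test, adjusted p = 0.0167), a percent change of -28.2.

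Slc3a2 encodes the heavy chain that brings Slc7a5 and related light chains to the cell surface (chr19:8706882-8723369, minus strand). It measured 389, 431 and 520.4 CPM in APOE3 and 308, 354 and 432 CPM in APOE4 cultures. The groups overlapped, with 5 of 8 APOE4 cultures below every APOE3 culture. The log2 fold change was -0.30 ± 0.07 (adjusted p = 0.0111).

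Slc7a8 encodes LAT2, a light chain that exchanges neutral amino acids (chr14:54722209-54781946, minus strand). Its fall was the largest of the 195 carriers. It measured 26.4, 33.5 and 55.0 CPM in APOE3 and 20.0, 21.9 and 29.6 CPM in APOE4 cultures. All 8 APOE4 cultures lay below the APOE3 median and 6 of 8 APOE3 cultures lay above every APOE4 culture. The log2 fold change was -0.64 ± 0.14 (adjusted p = 0.0083), and it was -0.39 ± 0.19 in males and -0.89 ± 0.19 in females, a difference between the sexes with an unadjusted p of 0.0802 in edgeR's fit of 4 groups.

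Slc43a2 encodes LAT4, a uniporter of branched-chain and other large neutral amino acids. It was named after its values were seen and fell by 0.14 on the log2 scale (adjusted p = 0.0337). Slc43a3, of the same family and described as a carrier of purine nucleobases, rose by 0.31 ± 0.08 (adjusted p = 0.0151), from a median of 144 CPM in APOE3 to 174 CPM in APOE4 cultures. Its lowest APOE4 culture, at 157 CPM, exceeded 7 of 8 APOE3 cultures, and APOE3 culture 31 overlapped at 183 CPM.

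The other amino acid carriers of the barrier list did not pass the test. Their log2 fold changes were -0.18 for Slc1a4 (neutral amino acids), -0.18 for Slc38a3 and 0.06 for Slc38a5 (both carriers of glutamine and related amino acids), 0.02 for Slc7a1 (cationic amino acids) and 0.23 for Slc6a6 (taurine), with adjusted p-values from 0.0972 to 0.788. Slc1a1, a glutamate carrier and the fourteenth carrier by level per length, had -0.19 ± 0.07 (adjusted p = 0.0619).

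Cells short of amino acids activate ATF4, which induces several amino acid carriers through elements of the form TGATGNAA, where N is any base. Of 18 genes of this response, 17 were tested, 0 were higher and 3 were lower (Atf4 -0.18, Trib3 -0.23 and Ddit4 -0.35), with a median of -0.11. The share lower was 17.6%, beside 6.09% of all genes tested. Slc7a11, the cystine carrier that is a textbook target of ATF4, did not pass the test. It was named after its values were seen. It measured 14.2, 21.7 and 23.8 CPM in APOE3 and 20.6, 25.0 and 28.5 CPM in APOE4 cultures (log2 fold change 0.24 ± 0.10, adjusted p = 0.0981). RefSeq promoter windows, from 250 bases before to 50 bases after a transcript start in GRCm38.p6, were at hand for 150 of the 195 carriers and for 21 of the 28 called. The element occurred on either strand in 5 of 150 carriers (3.33%), beside 4.51% of all genes with a window, whatever their level. Slc50a1 was the single called carrier among them. The bases before the start of Slc7a11 are shown because they hold this element in both orientations, in capitals, 66 to 59 and 47 to 40 bases before the start (chr3:50443614-50443863, minus strand):
Slc7a11: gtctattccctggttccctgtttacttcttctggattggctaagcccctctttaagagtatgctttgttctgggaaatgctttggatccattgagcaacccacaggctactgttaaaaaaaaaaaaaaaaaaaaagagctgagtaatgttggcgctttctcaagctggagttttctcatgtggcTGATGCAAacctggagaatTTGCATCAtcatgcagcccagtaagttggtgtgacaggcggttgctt

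Of 18 carriers of organic anions, cations and drugs, 5 were lower (27.8%, beside 6.09% of all genes tested). Slc22a8 encodes OAT3, which carries organic anions such as neurotransmitter metabolites and drugs (chr19:8591254-8611835, plus strand, on the same chromosome as Slc3a2). It measured 32.0, 35.8 and 50.7 CPM in APOE3 and 21.9, 27.2 and 36.2 CPM in APOE4 cultures. APOE4 culture 36 was above the APOE3 median, and the other 7 were below every APOE3 culture. The log2 fold change was -0.50 ± 0.10 (adjusted p = 0.0082).

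Slc22a17, a receptor for the iron-binding protein lipocalin 2, measured 9.17, 11.5 and 12.8 CPM in APOE3 and 6.75, 8.65 and 9.93 CPM in APOE4 cultures. All 8 APOE4 cultures were below the APOE3 median. Its log2 fold change was -0.42 ± 0.09 (adjusted p = 0.0100), and Slc22a23, named after its values were seen, fell by 0.16 (adjusted p = 0.0330).

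Of 8 Slco carriers above the minimum, 2 were lower (25.0%, beside 6.09% of all genes tested) and 0 higher. A log2 fold change below 0 was found for 6 (75.0%, beside 50.1% of all genes tested). Slco2b1 encodes a carrier of steroid conjugates and drugs (chr7:99657804-99711340, minus strand). It measured 567, 627 and 803 CPM in APOE3 and 469.7, 558 and 611 CPM in APOE4 cultures. All 8 APOE4 cultures lay below the APOE3 median, and the log2 fold change was -0.27 ± 0.07 (adjusted p = 0.0182). Slco1c1 encodes the thyroxine carrier of brain capillaries (chr6:141524368-141570177, plus strand). It measured 70.9, 88.2 and 111 CPM in APOE3 and 50.8, 72.0 and 90.0 CPM in APOE4 cultures, with a log2 fold change of -0.31 ± 0.10 (adjusted p = 0.0472). This call was the least stable. It was made in 6 of 16 fits that left out 1 culture, and with sex as a covariate its adjusted p was 0.0538.

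Slco1a4, a neighbouring gene that encodes a carrier of bile acids and drugs, did not pass the test. It measured 308, 353 and 440.2 CPM in APOE3 and 189, 304 and 370.4 CPM in APOE4 cultures (log2 fold change -0.29 ± 0.10, adjusted p = 0.0653).

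**Figure D3:**
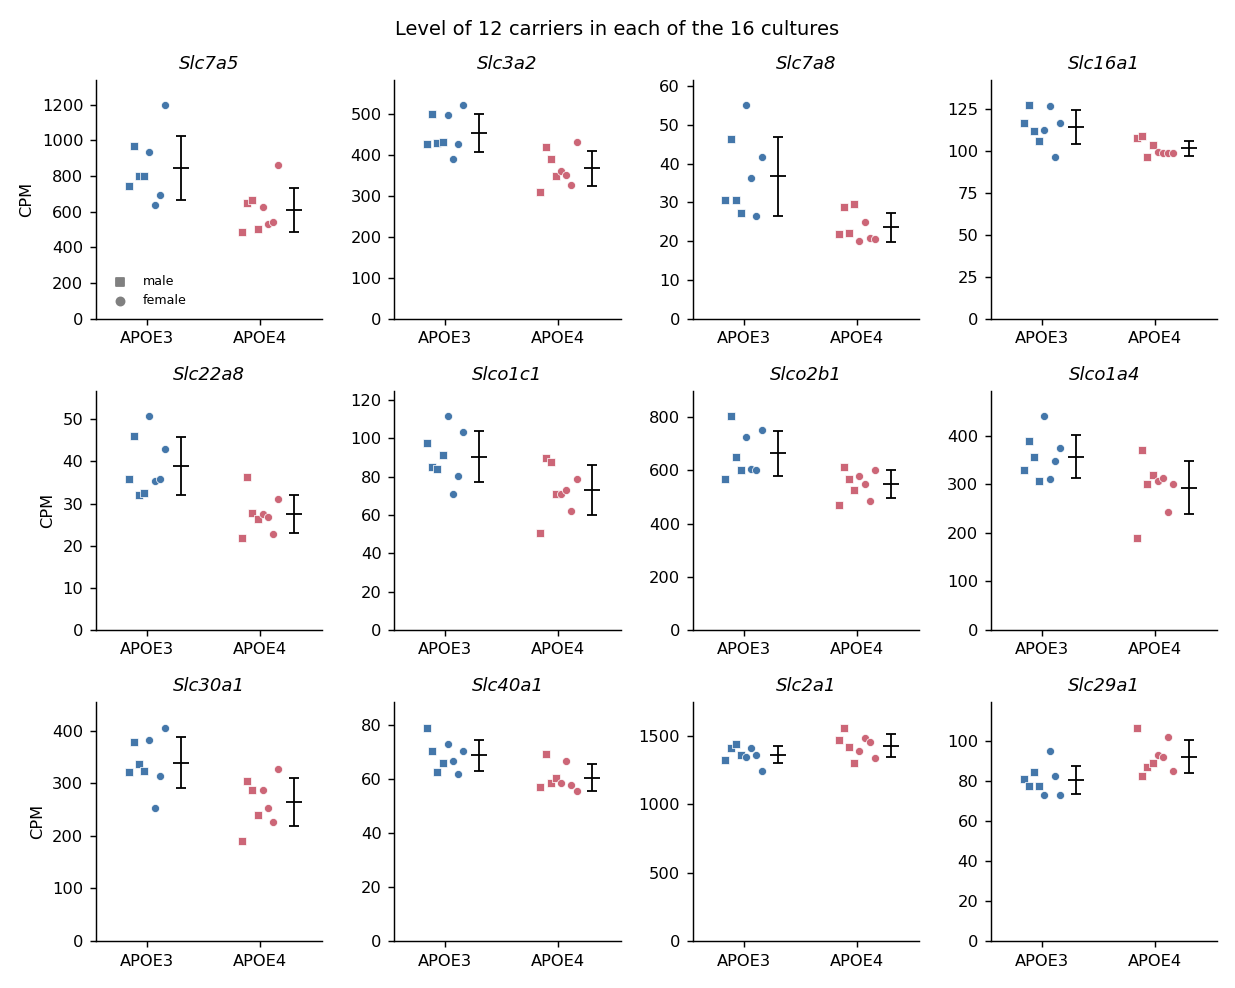
CPM of 12 carriers in each of the 16 cultures (squares males, circles females), with the mean and SD of each genotype in black, and axes that start at 0. Slc7a5, Slc3a2, Slc7a8, Slc16a1, Slc22a8, Slco1c1, Slco2b1, Slc30a1 and Slc40a1 passed the test as lower and Slc29a1 as higher with APOE4, Slco1a4 and Slc2a1 did not pass, and the genotypes overlap in every panel.

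Among monocarboxylate carriers, Slc16a1 (MCT1, chr3:104638668-104658462, plus strand) measured 96.2, 114 and 127 CPM in APOE3 and 96.2, 99.0 and 108 CPM in APOE4 cultures. All 8 APOE4 cultures were below the APOE3 median and 6 APOE3 cultures were above every APOE4 culture. The log2 fold change was -0.17 ± 0.05 (adjusted p = 0.0243). Bsg, which encodes the chaperone that takes MCT1 to the membrane, had a log2 fold change of -0.03 (adjusted p = 0.657). Slc16a6 (MCT7, linked to ketone body export) measured 33.6, 37.4 and 47.6 CPM in APOE3 and 25.1, 29.1 and 37.9 CPM in APOE4 cultures and fell by 0.35 ± 0.08 (adjusted p = 0.0131). Exons on the other strand cover 22.5% of its exon length, and the strand setting of the counting is not given in the sources used here, so reads of the opposite gene cannot be told apart from its own.

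Among sugar carriers, Slc2a1 (GLUT1, chr4:119108711-119137983, plus strand) measured 1247, 1362 and 1441 CPM in APOE3 and 1302, 1437 and 1563 CPM in APOE4 cultures. The cultures overlapped over most of their range, and the log2 fold change was 0.07 ± 0.04 (adjusted p = 0.267). Slc50a1 measured 97.0, 106 and 116 CPM in APOE3 and 88.0, 93.6 and 105 CPM in APOE4 cultures, and its log2 fold change was -0.16 ± 0.04 (adjusted p = 0.0175). Slc45a4, of a family of proton-coupled sugar carriers, had -0.35 ± 0.10 (adjusted p = 0.0248). Slc37a3, a lysosomal member of the sugar phosphate carrier family, rose by 0.19 ± 0.05 (adjusted p = 0.0229).

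Metal carriers had 4 lower members. Slc30a1 encodes ZnT1, the zinc exporter of the plasma membrane (chr1:191906767-191913247, plus strand). It measured 254, 329.6 and 406 CPM in APOE3 and 191, 269 and 326 CPM in APOE4 cultures. All 8 APOE4 cultures were below the APOE3 median, 4 of them below every APOE3 culture, and the log2 fold change was -0.36 ± 0.10 (adjusted p = 0.0236). Slc39a10, a zinc importer, had -0.22 ± 0.07 (adjusted p = 0.0383), and Slc39a8, an importer of zinc and manganese, had -0.08 ± 0.04 (adjusted p = 0.240).

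Slc40a1 encodes ferroportin, the known cellular iron exporter (chr1:45908068-45926523, minus strand). It measured 61.7, 68.5 and 79.0 CPM in APOE3 and 55.4, 58.5 and 69.3 CPM in APOE4 cultures, with 6 of 8 APOE4 cultures below every APOE3 culture. The log2 fold change was -0.19 ± 0.05 (adjusted p = 0.0305). Slc48a1, which moves heme out of endolysosomes and was named after its values were seen, fell by 0.13 (adjusted p = 0.0215).

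Zinc induces Slc30a1 and the metallothioneins through metal response elements, searched here as TGCACNC or TGCGCNC on either strand. The metallothioneins Mt1 and Mt2, which bind zinc, were looked at after Slc30a1 was seen to be lower, and both were higher with APOE4. Mt1 measured 58.5, 69.7 and 82.0 CPM in APOE3 and 64.9, 89.1 and 133 CPM in APOE4 cultures (log2 fold change 0.39 ± 0.11, adjusted p = 0.0298). Mt2 measured 50.8, 61.8 and 74.8 CPM in APOE3 and 58.2, 81.2 and 122 CPM in APOE4 cultures (log2 fold change 0.42 ± 0.11, adjusted p = 0.0214). In both, 7 of 8 APOE4 cultures lay above the APOE3 median. Mt1 was called in 12 and Mt2 in 15 of the 16 fits that left out 1 culture. With the mean level of cell cycle genes as a further term, the estimates were 0.01 ± 0.11 for Mt1 and 0.05 ± 0.11 for Mt2. Metal response elements were found for 61 of 150 carriers with a window (40.7%), beside 28.2% of all genes with a window. Those genes were taken whatever their level, while the carriers had to reach a minimum, so the shares come from unlike sets. Of the 21 called carriers with a window, 9 held a match, a share near the 40.7% of all carriers with a window. A match describes letters only. The bases before the start of Slc30a1 are shown because this carrier is the one whose regulation by zinc through such elements is best known, with its match before the start in capitals, 43 to 37 bases away (chr1:191906531-191906780, plus strand):
Slc30a1: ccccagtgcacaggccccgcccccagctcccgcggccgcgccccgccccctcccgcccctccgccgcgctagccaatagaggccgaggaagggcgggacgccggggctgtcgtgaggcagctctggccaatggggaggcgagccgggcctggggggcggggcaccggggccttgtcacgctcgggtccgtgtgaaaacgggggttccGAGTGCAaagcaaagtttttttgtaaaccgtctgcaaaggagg

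Of 38 mitochondrial carriers, 6 passed the test (15.8%, near the 12.8% of all genes tested). Slc25a27, an uncoupling protein, fell by 0.31 ± 0.09 (adjusted p = 0.0256), from a median of 12.2 to 9.26 CPM. Of the carriers of ATP-magnesium and phosphate, Slc25a23 fell by 0.29 ± 0.09 (adjusted p = 0.0367), and Slc25a24 rose by 0.24 ± 0.07 (adjusted p = 0.0254), from 26.7, 32.5 and 34.4 CPM in APOE3 to 33.7, 36.3 and 44.2 CPM in APOE4 cultures. Slc25a25, a carrier of the same kind named after its values were seen, had 0.01 ± 0.04 (adjusted p = 0.922).

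Slc25a4, the adenine nucleotide carrier ANT1, rose by 0.18 ± 0.05 (adjusted p = 0.0238), and all 8 APOE4 cultures were above the APOE3 median. Slc25a38, which supplies glycine for heme synthesis, and Slc25a28, mitoferrin 2, which brings iron into mitochondria, fell by 0.23 and 0.18 (adjusted p = 0.0232 and 0.0314). Both were named after their values were seen. With genes of low counts kept in the fit, the adjusted p of Slc25a28 was 0.0530.

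Ion, nucleoside and other carriers included 3 higher members. Slc4a8, a sodium-driven chloride and bicarbonate exchanger, was the carrier with the largest rise among those called, and it was low in every culture. It measured 3.28, 3.78 and 5.33 CPM in APOE3 and 4.54, 5.31 and 6.51 CPM in APOE4 cultures (log2 fold change 0.45 ± 0.12, adjusted p = 0.0204, with at least 49 counts in each library). Slc9a5, a sodium and proton exchanger, measured 14.8, 17.4 and 23.9 CPM in APOE3 and 21.6, 22.8 and 28.3 CPM in APOE4 cultures (log2 fold change 0.36 ± 0.08, adjusted p = 0.0103). Slc29a1 encodes the equilibrative nucleoside carrier ENT1. It measured 72.9, 79.4 and 94.8 CPM in APOE3 and 82.5, 90.6 and 107 CPM in APOE4 cultures (log2 fold change 0.20 ± 0.06, adjusted p = 0.0306).

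Further barrier carriers did not pass the test. Slc12a2, a sodium, potassium and chloride cotransporter, had a log2 fold change of -0.13 (adjusted p = 0.136). Slc19a3, a thiamine carrier, had 0.14 (0.409), and Slc27a1, which takes part in fatty acid uptake, had 0.10 (0.605).

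Further lists hold genes that work with these carriers or as carriers under other names. Of 22 carriers with other symbols, 17 were tested and 17.6% of these were called, beside 12.8% of all genes tested. Sfxn1, a mitochondrial serine carrier, was higher (0.16), and the mitochondrial proteins Ucp2 (-0.29) and Sfxn3 (-0.23) were lower, with a median of 0.01. Of 10 genes for partners and regulators of carriers, 8 were tested, 37.5% of these were called, and the median was 0.01. Txnip, an inhibitor of glucose uptake, was lower (-0.28). The scaffold proteins Slc9a3r1 and Slc9a3r2, whose symbols begin like those of carriers although they are not, were higher (0.25) and lower (-0.26).

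Within genotype, 3 pairs of genes were compared across cultures on the log2 CPM scale, giving 6 relations. The values of a culture share its library and its scaling. How closely other carriers follow Slc7a5 was not tested, so a close relation cannot be called particular to a pair. Slc7a5 was lowest in APOE3 culture 31 (639 CPM) and highest in culture 33 (1195 CPM). So were the zinc carriers Slc30a1 (254 and 406 CPM) and Slc39a10 (117 and 153 CPM), picked after their values were seen. Slc7a5 followed Slc3a2 with Pearson's r = 0.955 among 8 APOE3 cultures (two-sided exact permutation p = 2.48e-05, the smallest the permutations allow, adjusted over the 6 relations p = 1.49e-04, Spearman's rho = 1.0, permutation p = 4.96e-05). Without the 2 cultures farthest from the median of Slc7a5, r was 0.930 (n = 6, exact permutation p = 0.00139). Among 8 APOE4 cultures r was 0.887 (exact permutation p = 0.00154, adjusted p = 0.00461, rho = 0.905, permutation p = 0.00456). Without 2 cultures r was 0.784 (n = 6, exact permutation p = 0.0639). Leaving out cultures far from the median narrows the range and by itself tends to lower r. A lower r therefore does not show on which cultures a relation rested.

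Slc16a1 and Bsg had r = 0.666 among APOE3 cultures (n = 8, exact permutation p = 0.0716, adjusted p = 0.0860, rho = 0.595, permutation p = 0.132) and r = 0.799 among APOE4 cultures (n = 8, exact permutation p = 0.0234, adjusted p = 0.0350, rho = 0.738, permutation p = 0.0458). Without 2 cultures r was -0.02 and 0.65 (n = 6, exact permutation p = 0.936 and 0.107), so neither relation was shown in the other 6 cultures. Slco1a4 and Slco1c1 had r = 0.592 among APOE3 cultures (n = 8, exact permutation p = 0.122, adjusted p = 0.122, rho = 0.476, permutation p = 0.243) and r = 0.900 among APOE4 cultures (n = 8, exact permutation p = 0.00446, adjusted p = 0.00893, rho = 0.595, permutation p = 0.132). Without 2 cultures r was 0.462 and 0.461 (n = 6, exact permutation p = 0.365 and 0.412), so the relation among APOE4 cultures was not shown in the other 6.

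Cell cycle genes moved with genotype in the same cultures. Of 30 such genes, 28 were higher with APOE4 (93.3%, beside 6.71% of all genes tested) and 0 lower. The list's median was 0.66 on the log2 scale. These are transcript levels, not counts of dividing cells. At confluence the authors found no genotype difference in cell density or in nuclei labelled with bromodeoxyuridine, their measure of proliferation. Their mean log2 CPM, used as a score, was 5.52 ± 0.36 in APOE3 (SD, n = 8, 5.03 to 6.09) and 6.13 ± 0.28 in APOE4 cultures (n = 8, 5.81 to 6.61). Among the called carriers, the cultures at the ends of the score were often at the ends of the level. These carriers were chosen on the same values, and a culture at an end can itself add to the difference. The counts are therefore a description, and none was made over all genes. APOE4 culture 35, with the highest score (6.61), had the lowest APOE4 level for 11 of the 21 lower carriers and the highest for 6 of the 7 higher carriers. APOE3 culture 31, with the highest score of its genotype (6.09), had the lowest APOE3 level for 8 of the lower carriers and the highest for 5 of the higher ones, and APOE3 cultures 30 and 33, with the lowest scores (5.03 and 5.04), had the highest APOE3 level for 8 and 7 of the lower carriers.

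**Figure D4:**
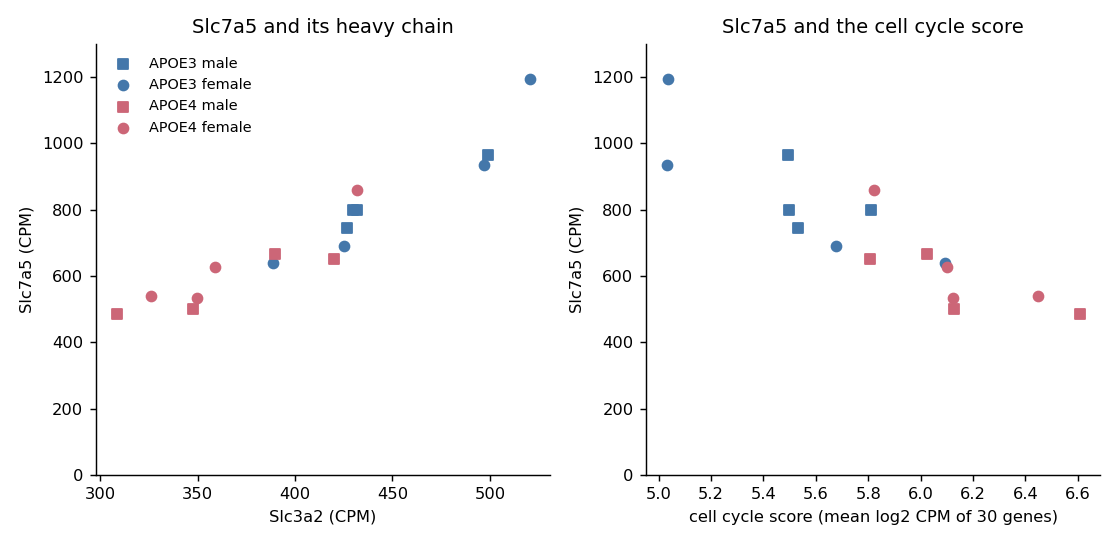
Slc7a5 (CPM) against Slc3a2 (CPM, left) and against the cell cycle score (mean log2 CPM of 30 genes, right) in the 16 cultures, blue for APOE3, red for APOE4, squares for males and circles for females. Cultures with more Slc3a2 had more Slc7a5 in both genotypes, and the cultures with scores of 5.03 and 5.04 include the highest Slc7a5 level of 1195 CPM while the culture with a score of 6.61 has the lowest, 486 CPM.

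With this score added as a term to edgeR's test, 0 carriers and 0 of all genes (0.0%) passed an adjusted p of 0.05, and 13 carriers had an unadjusted p under 0.05, beside 7.08% of all genes. The score differs between genotypes, so this fit gives up part of the genotype difference by its construction, and genotype and cell cycle cannot be told apart in these cultures. Of the 28 carriers, 23 kept the direction of their estimate and 21 were under 50% of their size. Slc7a5 went from -0.48 to -0.03 ± 0.10, Slc3a2 from -0.30 to -0.03 ± 0.05 and Slc30a1 from -0.36 to 0.03 ± 0.07. The other 7 were Slc16a1 (-0.20 ± 0.06, unadjusted p = 0.0061), Slc37a3 (0.17 ± 0.07, 0.0296), Slc48a1 (-0.10 ± 0.05, 0.0453), Slc7a8 (-0.33 ± 0.17, 0.0604), Slc25a28 (-0.14 ± 0.08, 0.0735), Slc16a6 (-0.20 ± 0.11, 0.0756) and Slc25a38 (-0.13 ± 0.08, 0.152).

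**Figure D5:**
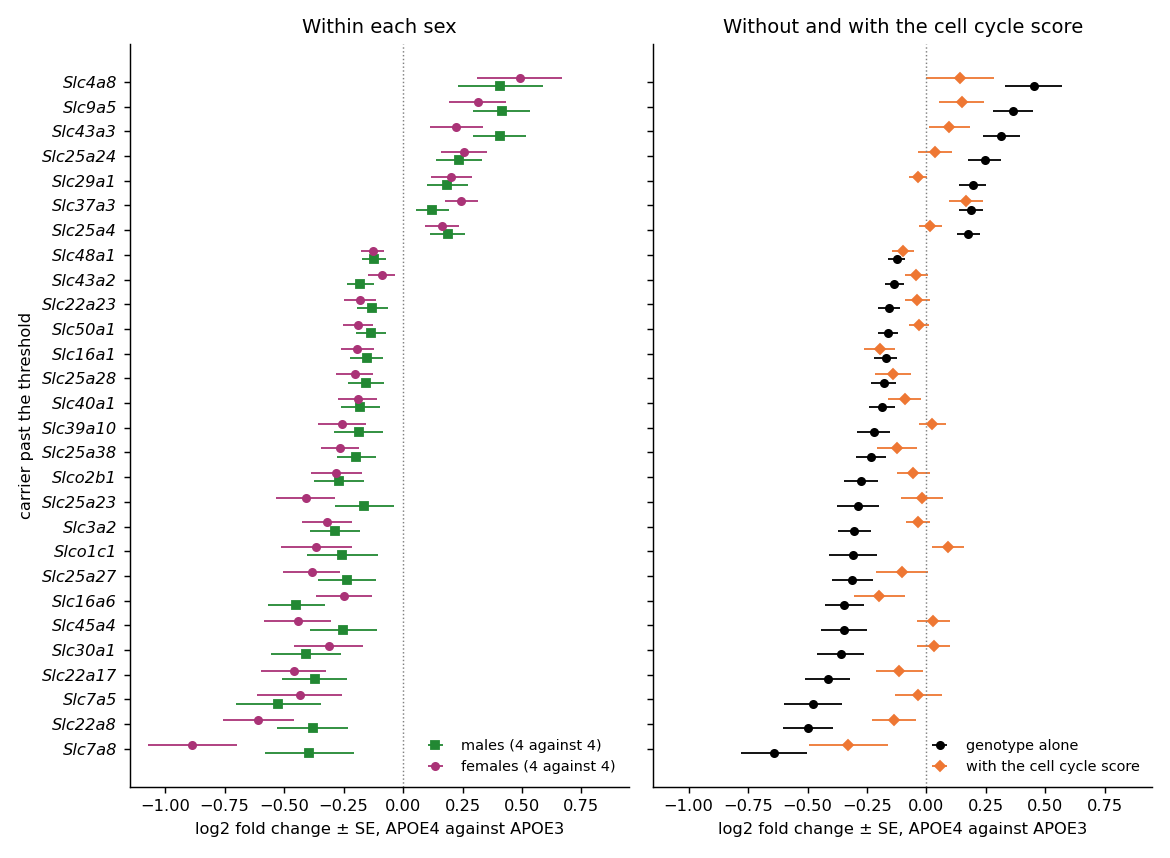
Log2 fold change with its SE (APOE4 against APOE3) of the 28 carriers that passed the test, within males and within females (left, 4 cultures against 4 each) and without and with the cell cycle score as a further term (right). Both sexes lie on the same side of 0 for each carrier, which the choice of carriers on both sexes together favours. With the score 21 of 28 estimates were under 50% of their size.

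The sexes were compared in 1 edgeR fit of 4 groups with 4 cultures each. All 28 called carriers had the same direction in males and in females. They were called on the same cultures of both sexes together, so this agreement is largely built in by that choice. The difference of the genotype effect between sexes passed an adjusted p of 0.05 for 0 carriers and for 0.0% of all genes tested, and 5 carriers (2.56%) had an unadjusted p under 0.05, beside 2.76% of all genes. With 4 cultures in each group, 0 calls do not show that the genotype effect is the same in both sexes.

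Carriers varied between cultures of the same genotype. The median ratio of the highest to the lowest culture was 1.32 in both genotypes, and 30 carriers exceeded 2 in at least 1 genotype. The widest were low in level. Slc19a1, the reduced folate carrier, ran over 4.02-fold in APOE3 cultures (1.04 to 4.18 CPM) and 2.78-fold in APOE4 cultures, with a log2 fold change of 0.08 (adjusted p = 0.881), and Slc6a9, a glycine carrier, ran over 3.40-fold in APOE3 cultures (log2 fold change -0.36, adjusted p = 0.352).

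The 181 genes with a carrier symbol that were left out comprised 173 under the minimum in both genotypes, 3 under it in APOE4 libraries only (Slc12a8, Slc15a2 and Slc7a3), 3 under it in APOE3 libraries only (Slc22a4, Slc2a6 and Slc8a1) and 2 in the window around Apoe. Of those 6, Slc15a2 had a log2 fold change of -1.22 ± 0.42 (adjusted p = 0.0580), beyond that of any carrier included, although it did not pass the test. The carrier just inside the minimum was Slc37a2, with a lowest count of 10 and medians of 1.37 and 1.13 CPM in APOE3 and APOE4 cultures. Just outside were Slc22a18 and Slc8a1, each with a lowest count of 9. In the window, Slc1a5, a neutral amino acid carrier, averaged 20.1 and 19.6 CPM in APOE3 and APOE4 cultures (log2 fold change -0.04, adjusted p = 0.802).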

How the data were processed

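Read counts were analysed from 16 cultures of brain endothelial cells, 8 per APOE genotype, each from a separate animal. The authors deposited whole-number read counts per gene without normalization. The submitters' processing notes name STAR, featureCounts and the builds mm10 and hg38, and tool versions, the annotation release and the strand setting are not given in the sources used here. Each library started from 100 ng of RNA, was amplified over 17 PCR cycles and carried no molecular identifiers, so precision from depth covers counting error only. Total counts were 12717847 to 18624417 per library.

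Symbols, positions and exon lengths came from GENCODE vM21 (GRCm38), in which 38872 of 39056 mouse identifiers were found. Counts were tested in R 4.3.3 with edgeR 4.0.16 (filterByExpr by genotype, TMM normalization, quasi-likelihood F test with genotype as the single term, Benjamini-Hochberg adjustment over 12481 genes, threshold 0.05). Sexes were compared in 1 fit of 4 groups. Log2 CPM used a prior count of 2. Correlations between 3 pairs of genes used exact permutation tests in Python 3.11.15. Alternatives were DESeq2's size factors and Wald test (1.42.0), limma's voom (3.58.1), other filters and members, sex or a cell cycle score as a covariate, and leaving out each culture. On simulated counts of 12481 genes the test found 88 of 100 genes changed by 1 and 76 of 100 changed by 0.5 on the log2 scale, with 6 others called. Each gene was simulated apart, without variation shared between genes, and the called carriers had a smaller median size of 0.28. These figures therefore do not carry over to the carriers.

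The members, the gene lists and the tests were chosen with earlier results of these data known. Genes named are the barrier carriers, the 12 largest falls and 12 largest rises among called carriers, the 5 highest levels per length, those nearest to the minimum, and called genes of the other lists. Others are said to be named after their values were seen. Reads shared with other genes were checked as 50-base stretches, and for no called carrier did they exceed 10% of its stretches. Some carriers of the barrier list are not reported here. No set test was made.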

Additional observations from a re-analysis of the deposited data

Results flagged for a closer look

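In 2 of 70 groups of 8 cultures, 1 culture lay far from the others by Dixon's criterion, which chance alone meets in about 1 of 20 groups. Slc43a3 in APOE3 culture 31 measured 182.54 CPM, while the other APOE3 cultures measured 123 to 151 CPM. Without this culture the log2 fold change was 0.37 (edgeR, adjusted p = 0.0024). Slc9a5 in APOE4 culture 35 measured 28.28 CPM beside 21.6 to 24.4 CPM, and without it the log2 fold change was 0.32 (adjusted p = 0.0209).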

How the results depend on the processing

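No paired analysis was possible because the labels number the animals once across both genotypes and share no number between them. With the cell cycle score added to the fit, edgeR called 0 carriers higher and 0 lower, with 13 at an unadjusted p under 0.05, and the estimates of Slc29a1 (-0.0344), Slc30a1 (0.0303), Slc39a10 (0.0245), Slc45a4 (0.0292) and Slco1c1 (0.0918) changed sign. DESeq2's Wald test called 11 higher and 25 lower. The other settings, including DESeq2's size factors, both filters, sex, limma's voom and both changes of membership, gave 7 to 9 higher and 20 to 22 lower. Leaving out 1 culture gave 3 to 10 higher and 9 to 27 lower. With Slc9a3r1 and Slc9a3r2 among the genes whose symbols go on after the pattern, the counts were 8 and 22. The median of the carriers was -0.02 to 0.00 across these fits, and the number with a difference between sexes was 0 in each fit run. Counts near 10, as in the lowest carriers, limit the precision there. The causes were not tested.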

Other observations

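Slc15a2, the peptide carrier PEPT2, fell outside the carriers described because 1 APOE4 library had 0 counts, and it was singled out after its values were seen. It measured 24.3, 19.7, 8.86, 20.6, 22.4, 8.73, 6.18 and 18.2 CPM in the APOE3 cultures and 2.70, 7.49, 0, 8.78, 14.2, 12.9, 4.62 and 4.30 CPM in the APOE4 cultures. The groups overlapped, and the log2 fold change was -1.22 ± 0.42 (edgeR's quasi-likelihood test, adjusted p = 0.0580). APOE4 culture 37 held 0 counts, while the other APOE4 libraries held 34 to 253 counts. Slc15a3, a lysosomal carrier of peptides and histidine in the same family, measured 2.24, 3.49 and 4.69 CPM (lowest, median and highest) in APOE3 and 3.43, 4.52 and 5.76 CPM in APOE4 cultures, with a log2 fold change of 0.43 ± 0.15 (adjusted p = 0.0568).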
